A study of Rattus norvegicus with 12 samples.

Results

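The abundant testis-restricted transcripts of the rat were defined as genes that averaged 100 FPKM or more in 6 testis libraries while their median in 6 brain libraries did not exceed 0.5 FPKM, and 203 of the 25908 genes in the deposited table met both limits. FPKM is a fragment count divided by the length of the gene and by the size of the library, so it is a share of a library and not an amount per cell. The members were chosen by these tissue levels, which are therefore given below as a description with no test, whereas the contrast of the genotypes within testis played no part in the choice. The libraries came from adult male Sprague Dawley rats aged 15 weeks that were either wild type or carried a human DNMT3A transgene, labelled hDNMT3A. Each genotype gave 3 brain and 3 testis libraries. The labels name neither the promoter of the transgene nor its founder lines, and they do not say that the numbered samples of a group were separate animals. The p-values below set the genotype difference against the variation between these samples, and that variation may be technical.

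As background, the testis makes an unusually large set of transcripts that other organs lack, and most of them belong to germ cells. Spermatocytes pass through meiosis, and the round spermatids that follow transcribe genes for the acrosome, the flagellum and the compaction of sperm chromatin before transcription stops. Some of these messages are stored and translated later. DNMT3A is a de novo DNA methyltransferase, and methylation of cytosines at promoters is one of the marks that keep germ-cell genes silent in somatic tissue. Which of these roles the 203 members play was not analysed here. The deposited table lists Ensembl identifiers without gene names, and 0 of its 25908 identifiers matched the reference table used for names (GRCr8, 47357 genes). For the same reason markers of testis cell types, rat Dnmt3a and promoter sequences were not analysed, and members are called below by their rank in mean testis level, with 4 identifiers given.

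Depth was read back from the steps of the FPKM values, which gave 14576668 to 16112149 reads per testis library and 14004547 to 15700711 per brain library. The same steps gave the length that had been used for each gene. A member was covered by a mean of 174 to 27467 reads per testis library, with a median of 3701, and 182 of the 203 members had at least 1000 reads in each testis library. The counting error of a typical member was therefore small, with a median of 1.63% of its level in wild-type and 1.66% in transgenic libraries. The counting error covers sampling of reads only.

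The members lay toward the lower end of the abundant testis transcripts. At 300 FPKM or more stood 19 of them (9.36%), against 26.4% of the 878 other genes of at least 100 FPKM, whose median was 177 FPKM. The members' mean levels ran from 100.7 to 565 FPKM, a 5.60-fold range, with a median of 169 FPKM and quartiles of 133 and 232 FPKM. Between 100 and 200 FPKM lay 129 members, between 200 and 300 FPKM 55, between 300 and 400 FPKM 14, and above 400 FPKM 5. The brain limit left out every gene of at least 600 FPKM, as described below, and within it no small group of members dominated. The 10 most abundant members held 10.8% of the members' summed FPKM and the 50 most abundant 39.2%, and it took 70 members to reach 50%.

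The member of rank 1 stood at 594, 568 and 524 FPKM in wild-type testis and at 604, 631 and 467 FPKM in transgenic testis. Its groups overlapped, and the lowest of the 6 values was that of transgenic replicate 3. The member of rank 2 was far steadier, at 485, 463 and 485 FPKM in wild type and 484, 479 and 477 FPKM in transgenic testis. Rank 3 stood at 476, 430 and 474 FPKM in wild type and at 483, 458 and 411 FPKM in transgenic testis. Each of the 20 most abundant members was above 200 FPKM in each testis library. The order of the members was shared by the libraries, with Spearman's rho across the 203 genes from 0.904 to 0.978 for the pairs of testis libraries; this is a description, because genes are not independent replicates.

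**Figure D1:**
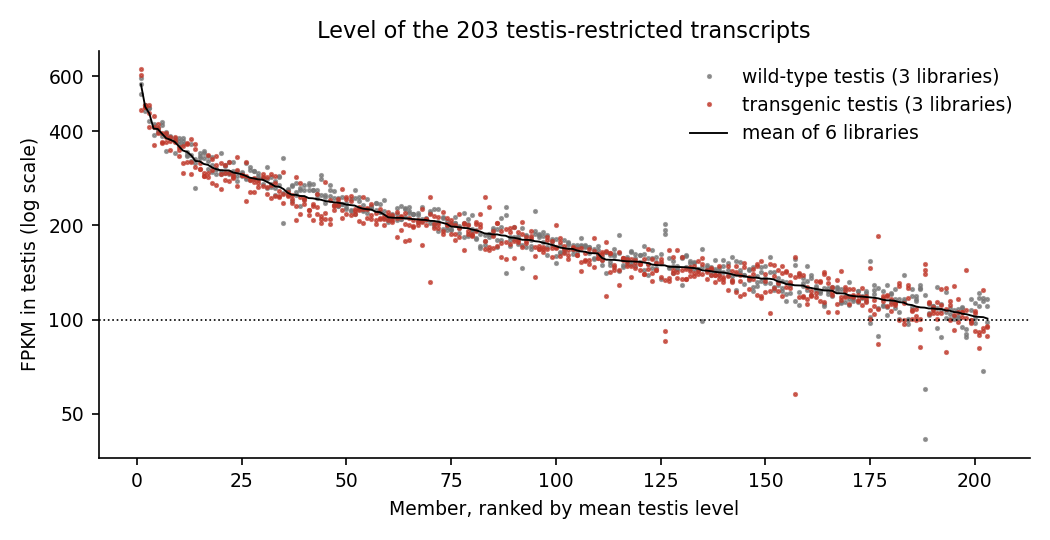
FPKM in testis (log axis) of the 203 members, ranked by the mean of 6 libraries (black line), with a point for each library (wild type in grey, transgenic in red) and a dotted line at the limit of 100 FPKM. The means fall from 565 to 100.7 FPKM, and a few members of low rank have libraries far from their mean.

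The limits cut through a continuous range of genes. The 3 members nearest to the testis limit had means of 100.7, 101.8 and 102.0 FPKM, and the 3 nearest genes outside it had 99.9, 99.3 and 98.1 FPKM. At the brain limit, the 3 highest members had medians of 0.497, 0.493 and 0.492 FPKM in brain, and the 3 nearest genes outside had 0.5002, 0.508 and 0.509 FPKM, with testis means of 300, 210 and 192 FPKM.

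The brain limit also set a ceiling in testis. Of 1081 genes with at least 100 FPKM in testis, 203 (18.8%) were members, and of the 89 genes with at least 600 FPKM none was. Yet 46 of these 89 genes (51.7%) stood in brain at under 0.5% of their testis level, with a median of 0.146%. Members themselves had a median of 0.134% and a highest value of 0.375%. Counted by this ratio, 333 of the 1081 genes were under 0.5%, namely the 203 members and 130 others, whose testis means ran from 112 to 11544 FPKM. The gene with the highest testis level of all, 11544 FPKM, was among these 130. A fixed limit of 0.5 FPKM in brain therefore left out the most abundant transcripts of this kind, and the 203 genes are not the top of the testis transcriptome.

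**Figure D2:**
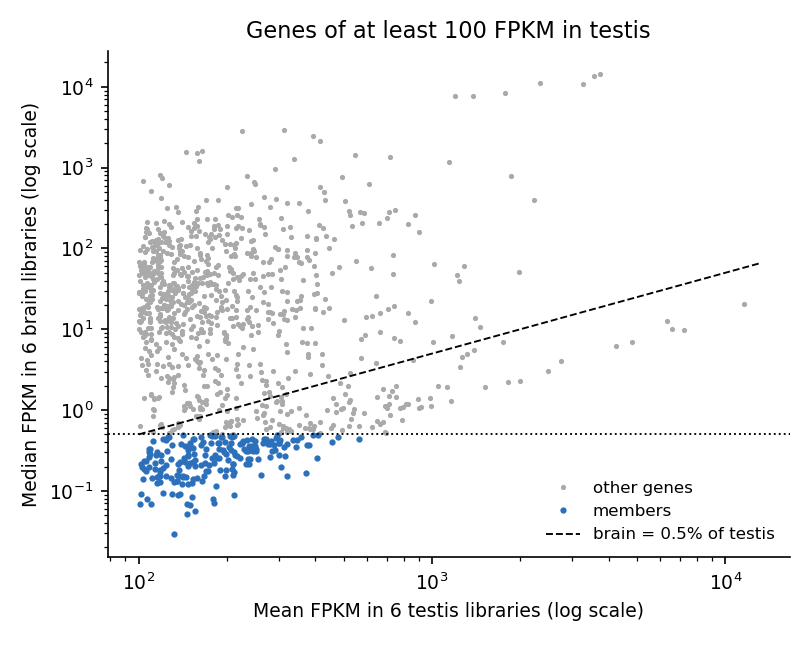
Median FPKM in brain against mean FPKM in testis (both axes logarithmic) for genes of at least 100 FPKM in testis, with members in blue and other genes in grey; 4 members with a brain median of 0 cannot be drawn. The dotted line is the brain limit of 0.5 FPKM and the dashed line 0.5% of the testis level, and 130 grey points lie under the dashed line.

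No member was free of reads in brain. Every one of the 203 had at least 1 read in some brain library, and 101 had reads in each of the 6. The level differed widely between brain libraries: the members summed to 3099, 13414 and 607 reads in wild-type brain replicates 1, 2 and 3, and to 530, 1085 and 1508 reads in transgenic brain replicates 1, 2 and 3. Members with 0 reads numbered 6, 1 and 64 in the wild-type libraries and 75, 23 and 11 in the transgenic ones.

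Wild-type brain replicate 2 held the highest brain value of 202 of the 203 members, and 202 exceeded 0.5 FPKM there. In the other brain libraries 120, 3, 1, 16 and 38 members exceeded 0.5 FPKM. In replicate 2 the level followed that in testis, with a median of 1.53% of the testis level for the 25% of members lowest in testis and 1.58% for the highest 25%. Spearman's rho between brain and testis level across members was 0.788 in that library and 0.562 in wild-type replicate 1. It was 0.339 and 0.422 in transgenic replicates 2 and 3. In wild-type replicate 3 and transgenic replicate 1, where most members had few reads or none, it was 0.054 and 0.073. The 130 other genes of this kind stood at 1.66% of their summed testis level in wild-type brain replicate 2, close to the 1.59% of the members. The match was looser elsewhere, for example 0.372% against 0.330% in wild-type replicate 1 and 0.169% against 0.119% in transgenic replicate 2. In wild-type replicate 3 it was 0.087% against 0.062%. The members and the 130 were divided by these same brain levels, so this comparison is a description only. Whether these reads came from brain cells or from testis RNA was not tested. With the median taken over the 5 other brain libraries, 229 genes met the rule in place of 203.

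The members had somewhat short gene models. The median length used for them was 1390 bp, against 1581 bp for the 878 other genes of at least 100 FPKM in testis and 1979 bp for the 14572 genes tested between genotypes. Lengths over 3000 bp were found for 16 members (7.88%), against 13.9% and 28.3%. Lengths under 500 bp were found for 21 members (10.3%), against 8.66% and 10.1%. Members of high and low level were alike in length, with medians of 1272 bp for the 50 most abundant and 1387 bp for the 50 least abundant. Because FPKM divides by length, these lengths bear on the choice of members, and the shortest, 106 bp at rank 193, rested on 124 to 207 reads per library.

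Replicates differed little for most members, with transgenic replicate 3 apart from the other transgenic libraries. The coefficient of variation over 3 libraries had a median of 4.21% in wild-type and 6.0% in transgenic testis, and it was higher in transgenic testis for 125 of the 203 members (61.6%). Without transgenic replicate 3 the transgenic median was 3.50%, over 2 libraries, and without any 1 wild-type library the wild-type median was 3.27% to 3.77%. The chi-square per member between recovered reads was 13.0 for transgenic replicates 1 and 2, 25.3 and 43.4 for pairs with transgenic replicate 3, and 13.2 to 16.6 for wild-type pairs. The spread was similar outside the members: among the 878 other abundant genes the medians were 3.51% and 5.78%, and 70.8% were more variable in transgenic testis. Coefficients over 20% were found for 6 members in wild-type and 7 in transgenic testis. The widest in transgenic testis was that of rank 157, at 158, 137 and 57.9 FPKM in replicates 1, 2 and 3, against 156, 149 and 115 FPKM in wild type.

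Together the members took a slightly smaller share of testis libraries in transgenic rats. They held 7.37%, 7.21% and 7.23% of the summed FPKM in wild-type testis replicates 1, 2 and 3, and 7.14%, 7.01% and 6.85% in the transgenic replicates. The groups did not overlap, and the lowest share was that of transgenic replicate 3. The mean was 7.27% ± 0.088 in wild type and 7.0% ± 0.149 in transgenic testis (SD, n = 3), a difference of -0.271 percentage points or -3.72% of the wild-type share. An exact two-sided permutation test gave p = 0.1, the smallest value that 3 against 3 libraries allow, so this design could not pass 0.05.

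The share of reads showed the same order. It was 6.11%, 5.91% and 5.99% in wild type and 5.88%, 5.80% and 5.68% in transgenic testis. The exact Clopper-Pearson interval at 95%, which covers counting error only, was 5.894% to 5.919% for wild-type replicate 2 and 5.867% to 5.891% for transgenic replicate 1, the closest libraries of opposite genotype. The means were 6.0% ± 0.103 and 5.79% ± 0.101 (SD, n = 3), a difference of -0.217 percentage points (exact two-sided permutation test, p = 0.1). In these bulk samples, fewer cells of a type and less RNA per cell cannot be told apart.

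Most of the difference in share lay outside the 10 most abundant members. These 10 held only 10.8% of the members' summed FPKM, so an even difference would also lie mostly outside them. Without the 10 most abundant members, the share was 6.49% ± 0.072 in wild type and 6.24% ± 0.115 in transgenic testis (SD, n = 3), with groups apart (exact permutation p = 0.1). The 10 most abundant members alone held 0.776% ± 0.017 and 0.760% ± 0.036 (SD, n = 3), with groups that overlapped (exact permutation p = 0.7). For the 878 other abundant genes the share was 54.2% ± 0.651 and 54.3% ± 0.211 (SD, n = 3), also overlapping (exact permutation p = 1). The 130 further genes under 0.5% in brain held 19.95% ± 0.604 and 20.04% ± 0.399 (SD, n = 3; exact permutation p = 0.8). When these 130 were counted with the members, the FPKM difference was -0.177 percentage points (exact permutation p = 0.8). The share of reads of all 333 genes differed by -0.362 percentage points (exact permutation p = 0.3). With the brain limit at 1 FPKM, which gave 287 genes, the FPKM difference was -0.424 percentage points and the groups again gave p = 0.1 in the exact permutation test.

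**Figure D3:**
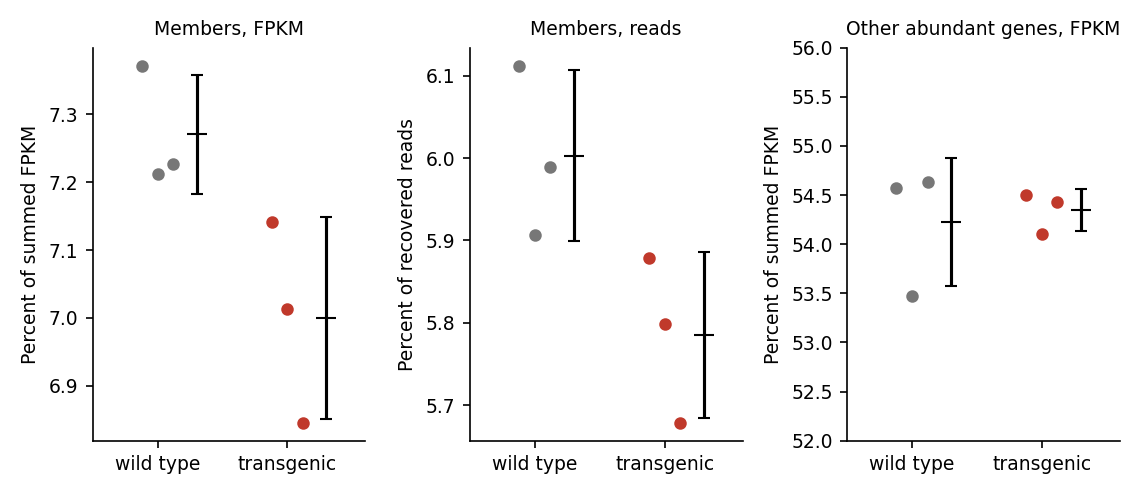
Percent of each testis library held by the members, as summed FPKM (left) and as recovered reads (middle), and by the 878 other genes of at least 100 FPKM (right), as points for single libraries beside their group's mean ± SD of 3 (wild type in grey, transgenic in red). The vertical axes do not start at 0. The members' groups are apart, 7.21% to 7.37% against 6.85% to 7.14%, and the other abundant genes overlap.

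Gene by gene, the differences were small and leaned to lower values in transgenic testis. Genotypes were compared with limma on log2(FPKM + 0.5) over the 14572 genes that averaged 1 FPKM or more in testis, which included each of the 203 members. Calls were made where the p adjusted by Benjamini-Hochberg over all genes tested was under 0.05. None of the members was called, while 84 of all genes tested were (0.576%). The smallest adjusted p of a member was 0.051. At an unadjusted p under 0.05 there were 33 members (16.3%), 29 lower and 4 higher in transgenic testis, against 11.1% of all genes tested. The members' share depended on the libraries and the fit. Without wild-type replicate 1 it was 17 members (8.37%), against 8.88% of all genes tested, so members then stood no higher than the rest. Without transgenic replicate 3 it was 50 (24.6%), against 13.0%. Without an intensity trend it was 15 (7.39%), against 10.97%, and with all 12 libraries in 1 fit it was 1 (0.493%), against 11.5%. That last fit drew its error also from the brain libraries, where the rule had chosen the members by level. Its count is therefore no measure of the testis contrast alone.

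The median log2 fold change of the members, transgenic minus wild type, was -0.04, with quartiles of -0.11 and 0.02, and 131 of the 203 were negative. Over all genes tested the median was 0.02 and 45.1% were negative, and over the 878 other abundant genes it was 0.00 and 51.6% were negative. The 130 further genes under 0.5% in brain had a median of -0.04 with 84 negative values (64.6%), close to the 64.5% of the members. Differences under 0.2 in size were found for 186 members (91.6%), against 72.3% of all genes tested. The share was 94.4% of the 878 other abundant genes and 95.4% of the 130 further genes, so small differences were not particular to members. A difference of at least 2-fold was found for 1 member (0.493%), against 1.83% of all genes tested and 0% of the 878 and of the 130. The lean was larger for members of high level: the median was -0.06 among the 68 highest in testis, 52 of them negative, -0.04 among the 67 in the middle, 42 negative, and -0.01 among the 68 lowest, 37 negative. The lean did not grow further at the very top: among the 20 most abundant members 12 were negative. Their values ran from -0.22 to 0.18, and the smallest adjusted p by limma was 0.098.

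In 36 members (17.7%) each transgenic library lay below each wild-type library, against 7.75% of all genes tested. The opposite order held for 5 members (2.46%), against 9.94% of all genes tested. Among the 878 other abundant genes the counts were 86 below (9.79%) and 62 above (7.06%), and among the 130 further genes 22 below (16.9%) and 6 above (4.62%). Transgenic replicate 3 was the lowest of the 6 testis libraries for 73 members (36.0%), against 21.3% of the other abundant genes, and wild-type replicate 1 was the highest for 66 members (32.5%), against 18.8%. Fewer libraries make this order easier to meet. With any 1 library left out, each remaining transgenic library lay below for 44 to 58 members. The highest count, 58 (28.6%), came without transgenic replicate 3, against 14.3% of all genes tested. Without wild-type replicate 2 it was 56 (27.6%), against 10.5%. The lowest, 44 (21.7%), came without wild-type replicate 1, against 11.98%, and without transgenic replicate 2 it was 45 (22.2%), against 11.8%. The opposite order then held for 9 to 20 members. The 20 (9.85%) came without transgenic replicate 3, against 17.2% of all genes tested.

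**Figure D4:**
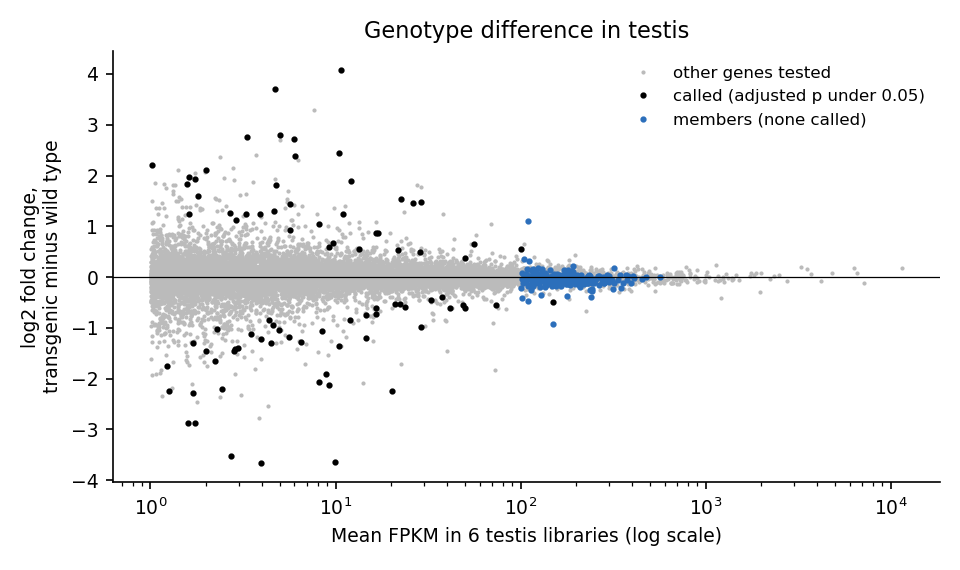
Log2 fold change in testis, transgenic minus wild type, against the mean FPKM of 6 testis libraries (log axis) for the 14572 genes tested, with members in blue, called genes in black and the others in grey. No member was called by limma, and members lie close to 0, with a median of -0.04.

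Fits that weighted libraries or reads gave a few calls. With limma's voom on the recovered reads, 7 members were called (3.45%), 6 lower and 1 higher in transgenic testis, against 1.3% of all genes tested. Array weights also called 7 members, against 196 of the 14572 genes tested, and all 7 were those of voom. The same 7 were the members with an adjusted p under 0.1 in the fit on log2 FPKM, where 199 of all genes tested were under 0.1. They stood at ranks 16, 41, 44, 126, 187 and 201 (lower) and 184 (higher).

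ENSRNOG00000029659 (rank 126) had the most negative fold change of the members. It stood at 201, 188 and 194 FPKM in wild-type testis and at 134, 91.9 and 85.6 FPKM in transgenic testis. The groups were well apart, and transgenic replicate 1 was the closest to wild type. The means were 194 ± 6.76 and 104 ± 26.1 FPKM (SD, n = 3), with wild type 1.87-fold higher. The log2 fold change was -0.93 (SE 0.16, adjusted p = 0.068 by limma). It was called without transgenic replicate 1 (adjusted p = 0.0061), with array weights and with voom, 3 of 17 alternatives in all.

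ENSRNOG00000023941 (rank 187) followed. It was steady in wild type, at 125, 126 and 129 FPKM, and lower in each transgenic library, at 93.1, 100.8 and 81.8 FPKM. Wild type was 1.38-fold higher, and the log2 fold change was -0.47 (SE 0.08, adjusted p = 0.068 by limma), called in 2 of 17 alternatives.

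ENSRNOG00000051848 (rank 188) had the most positive value and was the member with a difference of at least 2-fold on the log2 scale. Wild-type testis ranged widely, at 41.4, 60.1 and 119 FPKM, while transgenic testis stood at 140, 144 and 150 FPKM. The groups were apart only narrowly, because wild-type replicate 3 came near the transgenic values. The means were 73.7 ± 40.7 and 145 ± 5.21 FPKM (SD, n = 3), and the log2 fold change was 1.11 (SE 0.34, adjusted p = 0.26 by limma). Without wild-type replicate 3 it was 1.53 and was called (adjusted p = 0.039 by limma). Its length was 300 bp and it rested on 189 to 727 reads per library.

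ENSRNOG00000024815 (rank 198) stood at 88.1, 90.1 and 93.5 FPKM in wild type and at 101.2, 107 and 144 FPKM in transgenic testis. Each transgenic library was above wild type, and replicate 3 held much of the difference. The log2 fold change was 0.36 (SE 0.13, adjusted p = 0.36 by limma), and none of 17 alternatives called it, with log2 fold changes from 0.20 to 0.45.

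**Figure D5:**
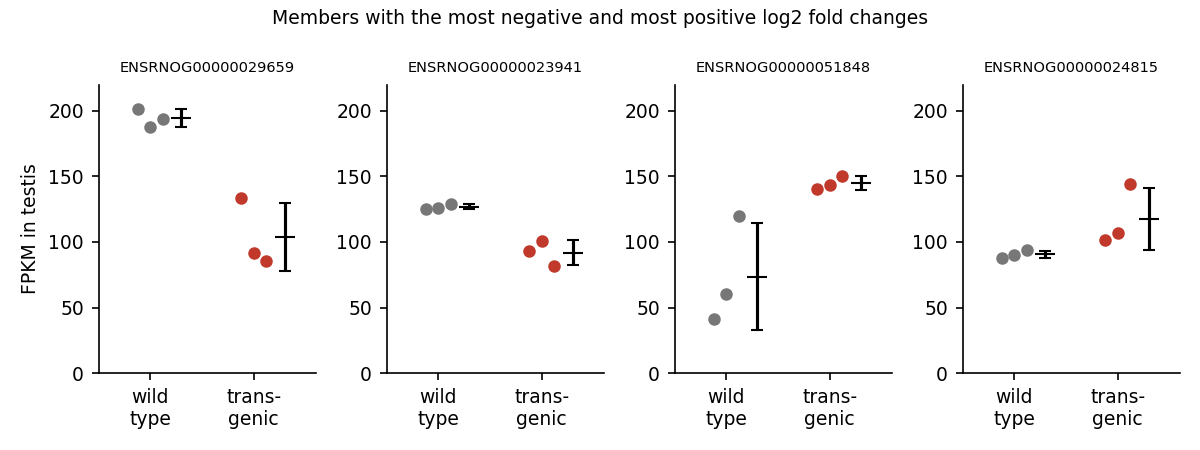
FPKM in testis of the 2 members with the most negative and the 2 with the most positive log2 fold changes, as points for single libraries beside their group's mean ± SD of 3 (wild type in grey, transgenic in red). The genotypes do not overlap in any of the 4, which picking members by extreme fold change favours, and the adjusted p by limma ran from 0.068 to 0.36.

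The member with the smallest adjusted p, at rank 201, stood at 111, 117 and 122 FPKM in wild type and at 91.0, 89.4 and 81.3 FPKM in transgenic testis, with a log2 fold change of -0.42 (SE 0.06, adjusted p = 0.051 by limma). Rank 184 was the higher one of the 7, at 99.4, 97.1 and 100.5 FPKM in wild type and at 118, 127 and 129 FPKM in transgenic testis, with a log2 fold change of 0.33 (SE 0.05, adjusted p = 0.062 by limma). Of the more abundant ones, rank 44 stood at 281, 251 and 290 FPKM in wild type and at 214, 210 and 203 FPKM in transgenic testis (log2 fold change -0.39). Rank 16 stood at 346, 329 and 341 FPKM against 295, 288 and 287 FPKM, with a log2 fold change of -0.22 (adjusted p = 0.098 by limma). In each of these 4 the genotypes did not overlap. The wild-type libraries of rank 44 were spread, with a coefficient of variation of 7.46%, above the members' 75th percentile of 6.65% in wild type. Picking members by a small adjusted p favours this pattern, so it adds no evidence. The widest difference among the 4, at rank 201, was 1.34-fold.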

How the data were processed

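FPKM values of 25908 genes in 12 libraries, 3 in each of 4 groups, form the table that the authors deposited. Trizol extraction and an Illumina TruSeq kit were used, per the labels' protocols. The submitters' processing notes name Bowtie 1.0.1 and Rnor_6.0. The annotation, the counting tool and the treatment of strand: not given in the sources used here. Overlapping and near-identical genes are therefore uncertain. Reads and lengths were recovered from the FPKM steps as whole numbers, within 0.002 reads, in 100% of genes, and at least 99.9865% of each recovered depth lay in listed genes. Testis genotypes were compared with limma 3.58.1 (R 4.3.3, intensity trend, two-sided) on log2(FPKM + 0.5), a scale that understates changes of low genes. Recovery and fit were tested on simulated data. Shares were compared with exact permutation tests (scipy 1.17.1, Python 3.11.15). Testis libraries of the same group were distinct, with a chi-square of 13.0 to 43.4 per member between pairs, and none were merged. Alternatives changed the pseudocount, filter, scaling, weights, libraries fitted, replicate block, thresholds and limits, and left out each testis library.

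The members and lists were chosen with earlier results of these data known. The rule named the 20 most abundant members, any called, the 5 with the largest fold changes in each direction and genes next to the limits, with at most 2 identifiers printed per direction; ranks 41, 157 and 193 were singled out after their values were seen. Gene lists, cell markers and sequences need gene names and were not used here. The grouping by a brain level under 0.5% of testis, the brain median over 5 libraries, the spread without single libraries and the counts of non-overlapping groups were added after seeing the data.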

Additional observations from a re-analysis of the deposited data

How the results depend on the processing

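Over 17 alternatives the members' median log2 fold change stayed negative, from -0.06 to -0.03, and it lay under that of all genes in each. Some of these could not move the members' median. Dropping the filter or the intensity trend, fitting 12 libraries together and blocking by replicate each gave the same -0.04 as above. Scaling by the median ratio, by genes that are not members, or by quantiles moved the median of all genes by at most 0.015. The difference in share was negative in its 10 alternatives, although the replicate block could not change its size. Without 1 library it ran from -0.342 to -0.193 percentage points of FPKM and from -0.266 to -0.163 of reads. With the replicate block the exact permutation p was 0.25, the smallest value that 3 pairs allow, so it does not show a weaker difference. Members called numbered 1 with a pseudocount of 1 FPKM, 1 with quantile normalization, 7 with array weights, 7 with voom and 7 at an adjusted p under 0.1, against 0, and 0 to 1 without 1 library. All called genes numbered 87 with a pseudocount of 1 FPKM and 82 with quantile normalization, against 84. They numbered 41 without a filter, 196 with array weights, 247 with 12 libraries in 1 fit, 190 with voom and 199 at an adjusted p under 0.1. Without 1 library they ran from 20 to 80 (41, 20 and 37 without wild-type replicate 1, 2 or 3, and 47 without transgenic replicate 2). With the replicate block they numbered 39, with 0 members. Same-numbered testis libraries correlated in their deviations at 0.047, 0.058 and 0.107 over all genes, not all above 0.1, and at 0.1996, 0.175 and 0.229 over the members, where differently numbered pairs ran from -0.190 to 0.059. Each library correlated best with its own number in both, a hint from the data; the labels do not say what a number marks, so pairing was neither shown nor set aside. In the blocked fit 36 members (17.7%) had an unadjusted p under 0.05, against 12.1% of all genes. The number of members was 74 with a testis limit of 200 FPKM, 386 with 50 FPKM, 21 with a brain limit of 0.1 FPKM, 57 with a brain mean in place of the median, and 333 with a brain limit of 0.5% of testis. Counts by gene list could not be run without gene names. With 3 libraries a group, exact tests could not go below 0.1 unpaired or below 0.25 on 3 pairs. For a typical member the spread between libraries was wider than the counting error. The medians were 4.21% against 1.63% in wild-type and 6.0% against 1.66% in transgenic testis. This need not hold for members with few reads.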
